A study of Mus musculus with 6 samples.

Results

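The cytochrome P450 genes are described here across the nephron segments of mouse kidney cortex. Of the 31053 genes in the count matrices, 93 have a symbol made of Cyp, a family number, a subfamily letter and a gene number, with pseudogenes left out. The 68 of these with at least 20 unique molecular identifiers (UMIs, each a counted RNA molecule) over all 6 matrices are the members, and 25 fell below that count. The members were thus chosen by their total UMIs in these same matrices, knockout and control together. Cyp1a1 (20 UMIs), Cyp3a59 and Cyp2c50 (22 UMIs each) stood just inside the threshold, and Cyp4f18 (18 UMIs), Cyp17a1, Cyp2c65 and Cyp2b23 (16 UMIs each) just outside it. By role the members are 21 epoxygenases (Cyp2c and Cyp2j genes), 20 xenobiotic enzymes, 13 fatty acid hydroxylases, 6 sterol and steroid enzymes, 4 vitamin D enzymes, 3 retinoic acid enzymes and Cyp20a1, whose substrate is not known. The knockout group held 3 libraries of FVB/N mice labelled Podocin-Cre Klf4 fl/fl, in which the Podocin promoter drives Cre in podocytes, the cells of the glomerular filter. The control group held 3 libraries of FVB/N mice labelled Klf4 fl/fl, so both groups carried the floxed Klf4 alleles and Cre was not directed at the tubule cells in which most members were counted. Nuclear RNA was counted on the 10x platform. The labels used here give no age, sex, batch or day, and beyond the title codes they do not state that the libraries come from separate animals, so p-values measure the spread between these libraries.

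Cytochrome P450 enzymes are heme proteins that insert oxygen into fatty acids, sterols, vitamin D, retinoic acid, drugs and toxins, using electrons passed on by P450 oxidoreductase or, in mitochondria, by adrenodoxin. In the kidney they are concentrated in the proximal tubule, whose successive segments S1, S2 and S3 reabsorb most of the filtrate. There they make arachidonic acid products that act on salt transport and vascular tone, and they make and break down the active hormone of vitamin D. Several mouse P450 genes of kidney and liver are known to depend on sex hormones.

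The knockout libraries held 18238, 4895 and 5771 nuclei after filtering, against 16726, 3741 and 5052 in the control libraries. Median UMIs per nucleus were 1504, 1294 and 1463 in the knockout libraries, against 2029, 1092 and 1795 in the control libraries. Knockout 1 and Control 1 stood apart from the other libraries, with total UMIs of 52478581 and 62016616 against 8270961 to 12604832, and with median mitochondrial shares of 1.09% and 2.54% against 0.085 to 0.163%. Same-numbered libraries shared 82, 21 and 42 cell barcodes for numbers 1, 2 and 3, while the other pairs among libraries numbered 2 and 3 shared 5 to 9. Pairs of a library numbered 1 with one numbered 2 or 3 shared 19 to 30. The libraries numbered 1 held by far the most nuclei, so the 82 they shared has no comparison of like size. Klf4 itself could not check the labels: it stood at 5.18, 1.39 and 4.13 CPM (UMIs of a gene per 1000000 UMIs) over all barcodes in the knockout libraries and at 2.71, 1.33 and 1.94 CPM in the control libraries, and the labels do not give the deleted exons. Ddx3y, carried on the Y chromosome, stood at 87.3 to 110 CPM in the knockout and at 86.4 to 102 CPM in the control libraries, and Xist at 0.645 to 1.57 CPM in all 6. Kap, an androgen-dependent proximal tubule transcript, reached 1947, 695 and 828 CPM over all barcodes in the knockout libraries, against 8077, 1170 and 1559 CPM in the control libraries. Nuclei were assigned to classes by marker genes, and below a class name stands for nuclei that are like that cell type by its markers.

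The family's summed RNA was highest in the proximal tubule, and other classes came close to S1. Summed over the members, S1 held 4071, 4760 and 3315 CPM in the knockout libraries and 5537, 5440 and 6126 CPM in the control libraries. S2 held 5264, 5333 and 3855 CPM in the knockout libraries and 6980, 5347 and 6665 CPM in the control libraries. In S3 the sum was 5786, 7446 and 5907 CPM in the knockout libraries and 6789, 4948 and 6252 CPM in the control libraries, which overlapped. Immune cells reached 3821, 4755 and 2288 CPM in the knockout and 5726, 4872 and 4853 CPM in the control libraries, and intercalated cell A 2662, 3735 and 1567 CPM in the knockout and 4961, 3553 and 4622 CPM in the control libraries. In immune cells Cyp4b1, Cyp2j5 and Cyp2j13 stood at 0.746, 0.709 and 0.866 of their proximal tubule level. The proximal tubule genes Slc34a1, Slc5a12, Slc22a6 and Lrp2 stood there at 0.766 to 0.981 of theirs. The part of RNA released by proximal tubule cells in these sums was not tested. The thick ascending limb held less, with 1639, 1055 and 760 CPM in the knockout and 2902, 2081 and 1572 CPM in the control libraries. Most of it came from 6 genes: over all barcodes of the 6 libraries, Cyp4b1 gave 216073 UMIs, Cyp2j5 166805, Cyp2j13 109053, Cyp7b1 68127, Cyp2e1 43245 and Cyp2j11 38622, before Cyp4a10 with 16195. The map of levels by class shows where each was counted. Cyp2j5 averaged 1120, 1287 and 1044 CPM in S1, S2 and S3 of the knockout libraries and 1241, 1412 and 1184 CPM in the control libraries, an even spread along the tubule. Cyp7b1, an oxysterol hydroxylase, was an S3 gene, with 137, 62.6 and 3066 CPM in S1, S2 and S3 of the knockout libraries and 67.2, 71.5 and 1204 CPM in the control libraries. The S3 sums above thus held more Cyp7b1 in the knockout on average, and sums without it were not taken. Cyp24a1, which inactivates the vitamin D hormone, was highest in S1, at 72.7 CPM in the knockout and 142 CPM in the control libraries, against 11.3 and 22.8 CPM in S2. Genes cannot be ranked by activity from these values, since CPM of nuclear RNA are not scaled to transcript length.

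**Figure D1:**
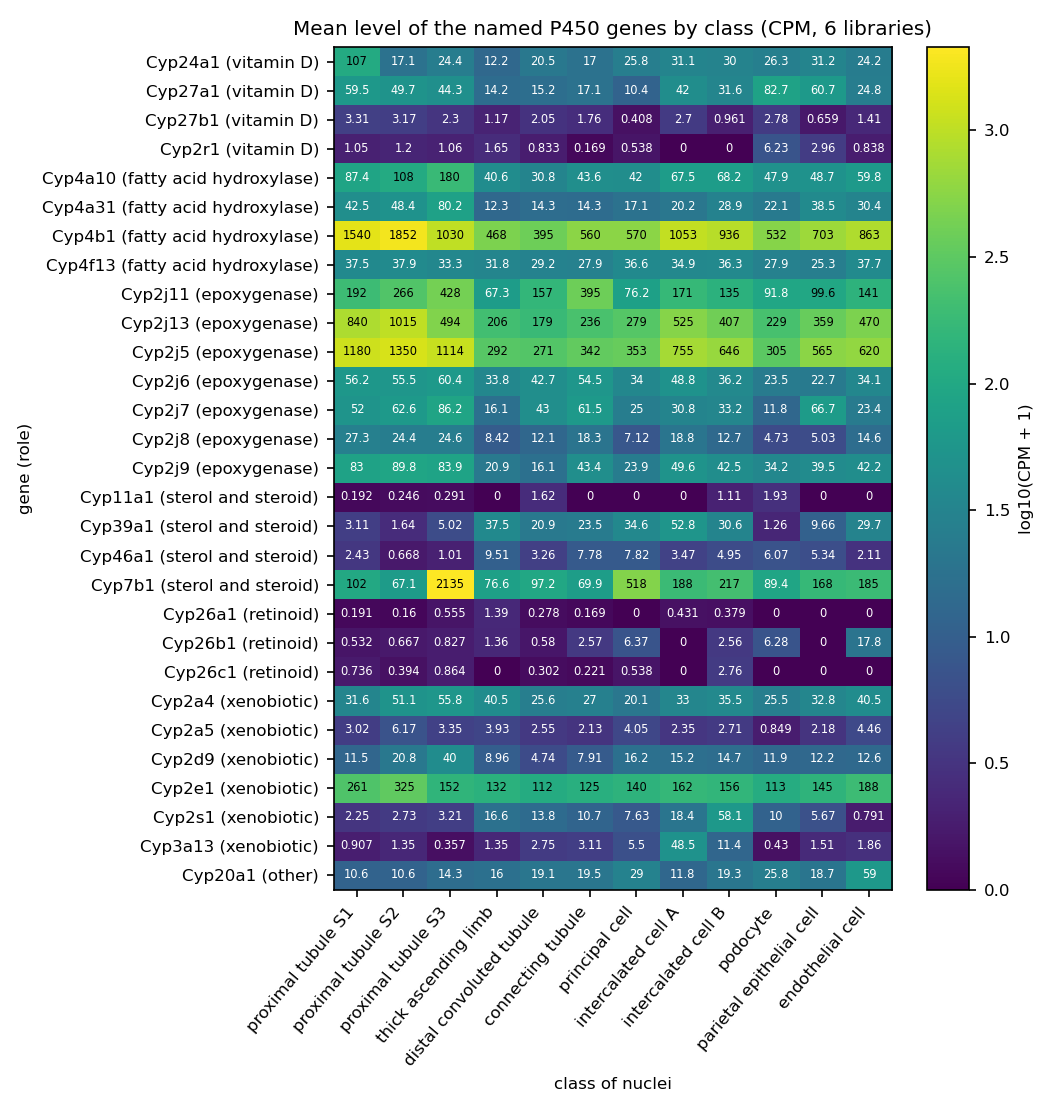
Mean CPM over the 6 libraries of each named member (rows, with its role) by class of nuclei (columns), printed in each cell and colored by log10(CPM + 1). Cyp7b1 stands out in proximal tubule S3, Cyp24a1 in S1, Cyp3a13 in intercalated cell A and Cyp2s1 in intercalated cell B.

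Between knockout and control, more of the tested proximal tubule members were lower than higher in the knockout, by sign. The summed RNA of the family overlapped between the groups in S3, but that sum includes Cyp7b1, which averaged higher in the knockout. No single member passed the test in any of the 9 tubule classes (edgeR quasi-likelihood test, Benjamini-Hochberg adjusted p of 0.05 over all genes of a class). The share of all tested genes that passed was 0% in S1, 0.00927% in S2 and 0.0632% in S3, so few genes of any kind passed. Of the 68 members, 23, 25 and 23 had enough counts for the test in S1, S2 and S3. Among them 10 had an unadjusted p under 0.05 in S1, all with lower values in the knockout, where 3.53% of all tested genes did so in that direction. In S2 there were 11, again all lower in the knockout (3.92% of all tested genes), and 0 were higher in S1 and S2 (3.38% and 3.47%). In S3 there were 7 lower (4.07%) and 1 higher, Cyp7b1 (2.63%). By sign alone, 18 of 23, 21 of 25 and 19 of 23 members were lower in the knockout in S1, S2 and S3, beside 52.3%, 50.7% and 50.7% of all tested genes. The members' median log2 fold changes were -0.55, -0.59 and -0.39 in these segments, and those of all tested genes were -0.02, -0.01 and -0.01. All 3 knockout libraries lay below all 3 control libraries for 10 members in S1 (4.53% of all tested genes), 9 in S2 (6.18%) and 5 in S3 (6.77%), and all 3 lay above for 0 members in each segment (8.83%, 6.89% and 6.09% of all tested genes). Cyp2d12 in S1 and Cyp2a5 and Cyp2d9 in S2 had enough counts for the test only through the control libraries, so a lower value in the knockout was built into their being tested. Without these, 9 of 22 members in S1 and 9 of 23 in S2 had an unadjusted p under 0.05, all lower, and 17 and 19 were lower by sign. Then 9 members in S1 and 7 in S2 lay below all control libraries, and the median log2 fold changes were -0.53 and -0.59. The shares of all tested genes were not trimmed in that way.

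**Figure D2:**
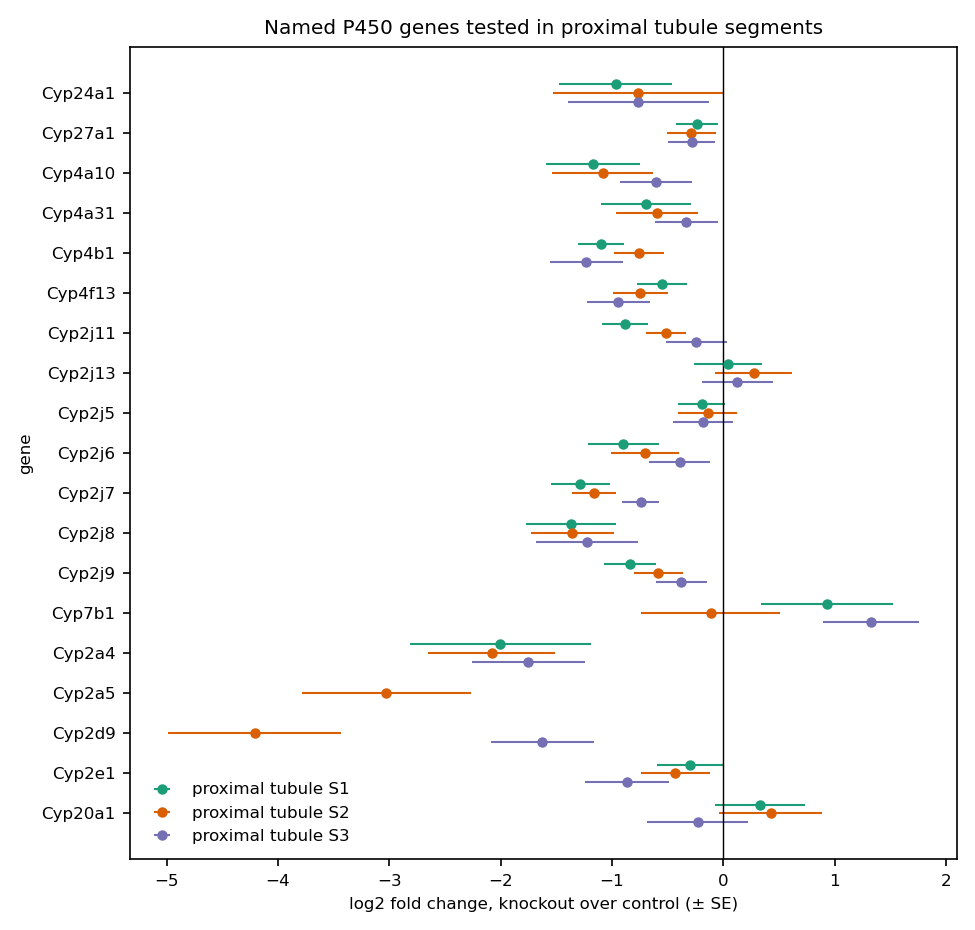
Log2 fold change, knockout over control, with its standard error, for the named members tested in proximal tubule S1, S2 and S3 (colors). Cyp2d9 in S2 lies farthest to the left, at -4.21, Cyp7b1 in S3 farthest to the right, at 1.33, and Cyp2j13 near 0.

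Other tools called a few members. DESeq2 called 2, 3 and 3 members in S1, S2 and S3, where it called 0.646%, 0.724% and 0.908% of all genes. The edgeR fit with the replicate number as a block called 1, 3 and 2 members, where it called 0.338%, 0.436% and 0.189% of all genes. Cyp2j7, Cyp2a4 and Cyp2d9 were called by both, and Cyp4b1 and Cyp7b1 in these segments by DESeq2 alone. Both called Cyp2d9 in S2, where a lower value in the knockout was built into its being tested. Without the low-count filter, edgeR called 3 members in S1 (0.234% of all genes) and 4 in S2 (0.297%). Proximal tubule markers did not all stand alike in the groups: Slc34a1, a phosphate transporter, averaged 5024, 4935 and 2239 CPM in S1, S2 and S3 of the knockout libraries and 5854, 6007 and 3714 CPM in the control libraries. Lrp2, the endocytic receptor megalin, averaged 2528, 2823 and 2030 CPM in the knockout and 1785, 1963 and 1699 CPM in the control libraries. The part of these differences and of RNA content per nucleus in the P450 values was not tested.

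The fatty acid hydroxylases were led by Cyp4b1 (ENSMUSG00000028713, chromosome 4, 115624725 to 115647723, minus strand of GRCm38), which hydroxylates medium-chain fatty acids and activates some toxins, and which depends on androgen in mouse kidney. In S1 it stood at 1038, 1156 and 807 CPM in the knockout libraries, against 1853, 2148 and 2234 CPM in the control libraries. Every knockout library was thus below every control library by a wide gap. The log2 fold change was -1.10 ± 0.20 (SE), with an adjusted p of 0.252 in edgeR, and an adjusted p of 0.000216 in DESeq2. In S2 it stood at 1521, 1483 and 1125 CPM in the knockout libraries, against 2531, 1977 and 2473 CPM in the control libraries, again without overlap (log2 fold change -0.76 ± 0.22, edgeR adjusted p 0.526). In S3 the values were 780, 701 and 360 CPM in the knockout libraries and 1306, 1163 and 1870 CPM in the control libraries (-1.23 ± 0.33, edgeR adjusted p 0.486, DESeq2 adjusted p 0.0149), also without overlap. The plot of the proximal tubule values by library shows the same order in each segment. About 8.26% of the 50-base words of its transcript also occur in transcripts of another gene, most often the pseudogene Cyp4b1-ps2, so a small share of its reads could be ambiguous.

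The Cyp4a genes, whose enzymes hydroxylate the end of fatty acids including arachidonic acid and are targets of the receptor PPAR-alpha, were less even. Cyp4a10 in S1 stood at 84.1, 45.2 and 27.5 CPM in the knockout libraries, against 94.4, 187 and 86.3 CPM in the control libraries. Knockout 1 came close to the lowest control value, and the groups did not overlap (-1.17 ± 0.42, edgeR adjusted p 0.632). Its neighbour Cyp4a31 overlapped, at 36.4, 38.9 and 20.0 CPM in the knockout and 38.1, 87.8 and 33.9 CPM in the control libraries in S1. The Cyp4a genes share sequence, 29.8% of 50-base words for Cyp4a10 and 43.8% for Cyp4a32, so how the counts split between them is uncertain. Cyp4f13, of a subfamily that hydroxylates leukotrienes and long-chain fatty acids, was below all control libraries in each segment. In S3 it stood at 26.9, 19.2 and 19.5 CPM in the knockout libraries, against 33.0, 61.1 and 40.1 CPM in the control libraries (-0.94 ± 0.28, edgeR adjusted p 0.553).

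The epoxygenases convert arachidonic acid into epoxides that widen vessels and favour sodium excretion. The Cyp2j cluster on chromosome 4 gave nearly all of their RNA, while of the Cyp2c genes Cyp2c66 alone had enough counts for a test, and only in S2 and S3. The Cyp2j genes differed in how far the groups lay apart. The pair with the highest counts, Cyp2j5 and Cyp2j13, overlapped between groups: in S1 Cyp2j5 stood at 1076, 1359 and 924 CPM in the knockout libraries, against 1285, 1109 and 1328 CPM in the control libraries (-0.20 ± 0.21, edgeR adjusted p 0.883). Cyp2j13 in S1 stood at 802, 1076 and 720 CPM in the knockout libraries and at 756, 527 and 1160 CPM in the control libraries (0.04 ± 0.30, edgeR adjusted p 0.988). The other Cyp2j genes tested, Cyp2j6, Cyp2j7, Cyp2j8, Cyp2j9 and Cyp2j11, were each below all control libraries in S1. In S2 that held for Cyp2j7, Cyp2j8 and Cyp2j11, and in S3 for Cyp2j7 alone, while Cyp2j6 and Cyp2j9 overlapped in both. The difference between the members of this cluster was not tested.

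Cyp2j7 (ENSMUSG00000081362, chromosome 4, 96195197 to 96236659, minus strand) had the tightest values of them. In S2 it stood at 47.0, 33.6 and 33.7 CPM in the knockout libraries, against 85.9, 96.3 and 79.3 CPM in the control libraries, a gap far wider than the spread within either group (-1.16 ± 0.20, edgeR adjusted p 0.184). The adjusted p was 0.0465 with the replicate block and 0.00896 in DESeq2. In S1 it stood at 30.6, 36.8 and 23.7 CPM in the knockout libraries and at 56.1, 97.7 and 67.3 CPM in the control libraries (-1.29 ± 0.26, edgeR adjusted p 0.272, 0.0496 with the replicate block and 0.0274 in DESeq2). In S3 it stood at 61.3, 68.1 and 64.8 CPM in the knockout libraries and at 108, 101 and 113 CPM in the control libraries (-0.74 ± 0.17, edgeR adjusted p 0.404). The groups did not overlap in any of the 3 segments. Cyp2j11 did not keep that separation along the tubule. It stood at 158, 145 and 108 CPM in S1 of the knockout libraries, against 219, 298 and 227 CPM in the control libraries (-0.89 ± 0.21, edgeR adjusted p 0.347). In S3 its values overlapped, with 375, 537 and 266 CPM in the knockout and 535, 450 and 408 CPM in the control libraries.

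Among the xenobiotic enzymes Cyp2a4, Cyp2a5, Cyp2d9 and Cyp2d12 had far lower values in the knockout in at least 1 segment. Cyp2a5 and Cyp2d9 in S2 and Cyp2d12 in S1 had enough counts for the test only through the control libraries. A lower value in the knockout was thus built into their being tested there. Cyp2a4 and Cyp2d9 make steroid hydroxylases known in mouse liver or kidney to differ between the sexes. Cyp2a4 (ENSMUSG00000074254, chromosome 7, 26307169 to 26315088, plus strand) hydroxylates testosterone. In S2 it stood at 29.5, 6.53 and 20.5 CPM in the knockout libraries, against 146, 61.4 and 42.3 CPM in the control libraries. The groups did not overlap, and Control 1 was far above the other control libraries (-2.08 ± 0.57, edgeR adjusted p 0.492). The adjusted p was 0.0484 with the replicate block and 0.00896 in DESeq2. In S3 it stood at 39.7, 16.6 and 20.9 CPM in the knockout libraries and at 150, 41.7 and 66.3 CPM in the control libraries (-1.75 ± 0.51, edgeR adjusted p 0.553, 0.0374 with the replicate block and 0.034 in DESeq2). In S1 the groups overlapped, with 21.1, 4.21 and 12.5 CPM in the knockout and 110, 30.9 and 10.9 CPM in the control libraries. Cyp2a5, a coumarin hydroxylase, stood at 2.12, 0 and 0.822 CPM in S2 of the knockout libraries (14 UMIs), against 17.6, 12 and 4.44 CPM in the control libraries (224 UMIs), with an edgeR adjusted p of 0.445. The transcripts of the pair share sequence, 38% of 50-base words for Cyp2a4 and 37% for Cyp2a5, so their counts are uncertain as separate genes. Their promoters, the 250 bases before each annotated start in RefSeq, are also close copies, identical at 245 of 250 positions (98%), and are shown to let a reader see that likeness (GRCm38.p6, plus strand, chr7:26306942-26307191 for Cyp2a4 and chr7:26835089-26835338 for Cyp2a5). The capitals mark GTTAAT, a half-site of the HNF1 motif, at positions -160 and -161 from the start.
Cyp2a4: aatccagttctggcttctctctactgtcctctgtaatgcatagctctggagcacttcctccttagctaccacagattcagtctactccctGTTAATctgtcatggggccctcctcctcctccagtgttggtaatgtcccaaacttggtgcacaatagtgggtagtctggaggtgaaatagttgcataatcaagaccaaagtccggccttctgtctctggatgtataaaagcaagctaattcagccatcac
Cyp2a5: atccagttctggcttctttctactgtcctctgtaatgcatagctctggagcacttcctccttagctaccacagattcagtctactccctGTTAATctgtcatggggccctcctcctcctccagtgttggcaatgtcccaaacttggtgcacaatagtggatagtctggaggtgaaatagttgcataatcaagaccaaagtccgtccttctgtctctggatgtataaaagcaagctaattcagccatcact
GTTAAT was found on either strand in 13.8% of the members' promoter windows and in 6.43% of all windows.

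Cyp2d9 (ENSMUSG00000068086, chromosome 15, 82433437 to 82456845, plus strand), a testosterone hydroxylase that is male-specific in mouse liver, had log2 fold changes of different size in S2 and S3. In S2 it had enough counts for the test only through the control libraries, so a lower value in the knockout was built into that fold change and its p-values. There it stood at 3.26, 0.933 and 0 CPM in the knockout libraries (21 UMIs), against 55.8, 53.0 and 11.8 CPM in the control libraries (715 UMIs). In S3 it stood at 30.2, 15.7 and 11.2 CPM in the knockout libraries, against 83.4, 70.0 and 29.6 CPM in the control libraries, where the highest knockout value just passed the lowest control value. The log2 fold change was -4.21 ± 0.78 in S2 (edgeR adjusted p 0.191, 0.00814 with the replicate block, 3.31e-06 in DESeq2) and -1.63 ± 0.46 in S3 (edgeR adjusted p 0.553, 0.038 with the replicate block). In 1 fit over the 3 segments with library as a block, the knockout effect in S3 minus that in S2 was 2.75 ± 0.36 on the log2 scale, with an edgeR adjusted p of 0.00182. It was the 1 gene called of 10644 tested (0.00939%), and no gene was called between S2 and S1 or between S3 and S1. In S1 it had too few counts for its own test, at 4.21, 1.05 and 2.5 CPM in the knockout libraries and 33.8, 22.3 and 5.18 CPM in the control libraries. The 1.40 CPM of the knockout libraries in S2 lay within the 0 to 3.53 CPM they averaged in the 6 tested tubule classes outside the proximal tubule, where the control libraries averaged 9.48 to 29.3 CPM. Of its 50-base words, 16.7% occur in other genes' transcripts.

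Cyp2e1 (ENSMUSG00000025479, chromosome 7, 140763739 to 140774987, plus strand), which oxidizes ethanol, acetone and paracetamol, gave the most counts of the xenobiotic enzymes. In S3 it stood at 152.4, 116 and 55.1 CPM in the knockout libraries, against 263, 162 and 161.3 CPM in the control libraries, without overlap (-0.86 ± 0.38, edgeR adjusted p 0.740). In S1 it overlapped, at 257, 286 and 176 CPM in the knockout and 385, 199 and 262 CPM in the control libraries, and so it did in S2. Cyp2d12, a relative of Cyp2d9 that was tested in S1 only through the control libraries, stood at 7.37, 1.05 and 1.25 CPM in S1 of the knockout libraries and at 28.0, 9.89 and 8.63 CPM in the control libraries. The 250 bases before the start of Cyp2e1 annotated in RefSeq (GRCm38.p6, chr7:140763569-140763818, plus strand) are shown as those of a member with high counts whose groups overlapped in S1 and S2. The gene start given above comes from another annotation, GENCODE, and lies inside this window. The capitals mark CCAAT, the CCAAT box, read on the opposite strand at positions -210 and -68.
Cyp2e1: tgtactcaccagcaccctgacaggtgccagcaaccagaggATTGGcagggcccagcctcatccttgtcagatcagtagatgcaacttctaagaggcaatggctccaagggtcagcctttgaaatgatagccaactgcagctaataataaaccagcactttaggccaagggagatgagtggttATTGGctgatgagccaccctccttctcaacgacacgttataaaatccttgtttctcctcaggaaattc
CCAAT was found on either strand in 36.2% of the members' windows and in 33.8% of all windows. A further motif, CAAAGTCCA for HNF4, was found in 10.3% of the members' windows and in 0.384% of all windows. All 6 of those windows belong to genes with 280 or fewer UMIs here, Cyp3a16 and the Cyp2c genes Cyp2c40, Cyp2c67, Cyp2c68, Cyp2c69 and Cyp2c70, and none to a member with high counts. The transcripts of Cyp2c40, Cyp2c67, Cyp2c68 and Cyp2c69 share 43.3% to 60.3% of their 50-base words with those of other Cyp genes. Whether their windows are copies of each other, counted several times in that share, was not tested. RefSeq windows matched 53 of the 68 members (58 windows), and none of these 3 motifs contains another.

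**Figure D3:**
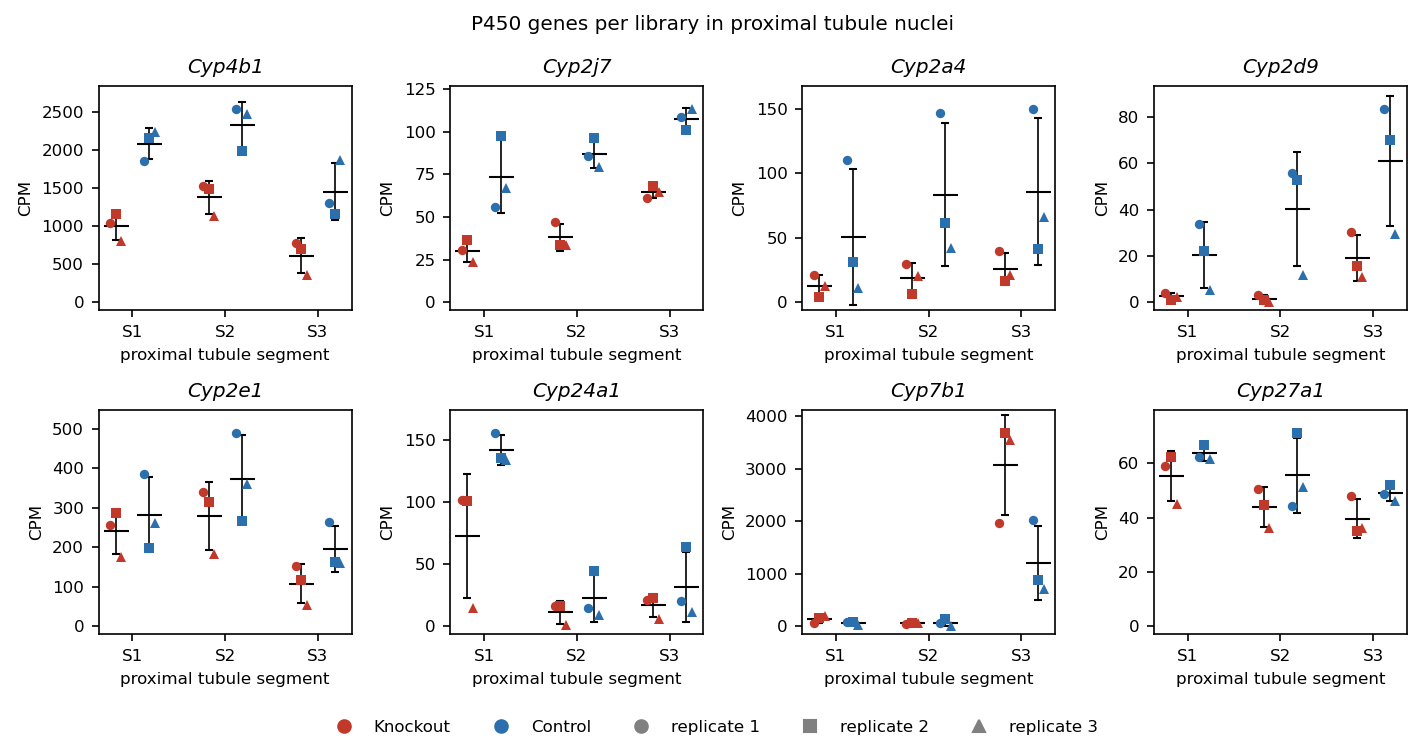
CPM of 8 members in proximal tubule S1, S2 and S3, with 1 point per library (shape for its number), knockout left of control, and the mean ± SD of each group. Cyp4b1 and Cyp2j7 do not overlap between the groups in any segment, whereas Cyp7b1 in S3 overlaps because Knockout 1, at 1970 CPM, is just below Control 1, at 2015 CPM.

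The vitamin D enzymes were dominated by Cyp24a1 (chromosome 2, 170482708 to 170497145, minus strand). In S1 it stood at 102, 101 and 15 CPM in the knockout libraries, against 155.8, 136 and 134 CPM in the control libraries. The groups did not overlap, but Knockout 3 was far below the other knockout libraries. The log2 fold change was -0.97 ± 0.51 (edgeR adjusted p 0.764) and -0.53 without Knockout 3. In S2 and S3, with lower levels, the groups overlapped. Cyp27b1, which makes the hormone that Cyp24a1 removes, had 459 UMIs in all libraries and too few in any tubule class for the test. In S1 it stood at 4.00, 1.05 and 3.75 CPM in the knockout libraries and at 4.45, 3.71 and 2.88 CPM in the control libraries, which overlapped. Cyp27a1, a mitochondrial sterol hydroxylase that also acts on vitamin D, stood at 59.0, 62.1 and 45.0 CPM in S1 of the knockout libraries and at 62.3, 66.8 and 61.6 CPM in the control libraries (-0.24 ± 0.19, edgeR adjusted p 0.847). Cyp2r1, the liver enzyme of the first activating step, had 163 UMIs in all.

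The sterol enzyme Cyp7b1 (ENSMUSG00000039519, chromosome 3, 18071950 to 18243338, minus strand) was the 1 member with higher values in the knockout at an unadjusted p under 0.05 in the proximal tubule. In S3 it stood at 1970, 3677 and 3552 CPM in the knockout libraries, against 2015, 880 and 716 CPM in the control libraries. The groups overlapped through the libraries numbered 1, which were nearly equal, while Knockout 2 and Knockout 3 were far above Control 2 and Control 3. The log2 fold change was 1.33 ± 0.43 (edgeR adjusted p 0.573, DESeq2 adjusted p 0.0409). Without both libraries numbered 1 it was 2.20, with an edgeR adjusted p of 0.0149 (0.261% of all genes called in that fit). The difference between the knockout effects in S3 and S2 was 1.07 on the log2 scale (edgeR adjusted p 1).

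S3 held several clusters of nuclei in different proportions by library, so Cyp7b1 was also read within them (the family was left out of the clustering). The largest S3 cluster held 53.5%, 41.6% and 26.3% of the S3 nuclei of the knockout libraries and 60.5%, 26.3% and 24.6% of those of the control libraries. In it Cyp7b1 stood at 2966, 6107 and 4403 CPM in the knockout libraries, against 2860, 2118 and 1990 CPM in the control libraries, without overlap. A second cluster had 1601, 2739 and 2572 CPM in the knockout and 1528, 690.7 and 1056 CPM in the control libraries, and another 518, 876 and 1178 CPM in the knockout against 175, 184 and 104.5 CPM in the control libraries. In the fourth the groups overlapped, with 204, 736 and 620 CPM in the knockout libraries and 262, 368 and 34.1 CPM in the control libraries. All knockout libraries were thus above all control libraries in 3 of the 4 S3 clusters present in every library. A further S3 cluster held 34.9% of the S3 nuclei of Knockout 3 but 0 to 4.06% of those of the other libraries, and had 5705 CPM in Knockout 3. Without the proximal tubule clusters spread that unevenly, the log2 fold change of Cyp7b1 in S3 was 1.16.

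S1 and S2 held uneven clusters as well. An S1 cluster whose leading genes include Cxcl1, a chemokine, and Fga and Fgg, which encode fibrinogen chains, made up 13.2%, 13.2% and 6.45% of the S1 nuclei of the knockout libraries and 0.812%, 0.346% and 2.22% of those of the control libraries. An S2 cluster also led by Cxcl1 made up 0.665%, 4.45% and 9.35% of the S2 nuclei of the knockout libraries and 0.224%, 7.45% and 27.0% of those of the control libraries. A further S2 cluster, led by Kap and ribosomal protein genes, made up 27.2% to 35.8% in the knockout libraries and 31.8%, 57.9% and 14.6% in the control libraries. Without the first and second of these and the other clusters whose share differed by over 10 times among the libraries, the log2 fold change of Cyp4b1 was -1.05 in S1 and -0.76 in S2, and that of Cyp2j7 -1.23 and -1.12. The part of cluster makeup in the other values was not tested.

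Read within clusters, the lower values held for some members. Cyp4b1 in all knockout libraries was below all control libraries in 3 of 3 S1 clusters, 4 of 4 S2 clusters and 2 of 4 S3 clusters that every library held. For Cyp2j7 these counts were 1 of 3, 4 of 4 and 3 of 4. For Cyp2a4 they were 0 of 3, 3 of 4 and 1 of 4, and for Cyp2d9 1 of 3, 3 of 4 and 3 of 4. The mean of the knockout libraries was the lower for Cyp4b1 in each of these clusters.

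**Figure D4:**
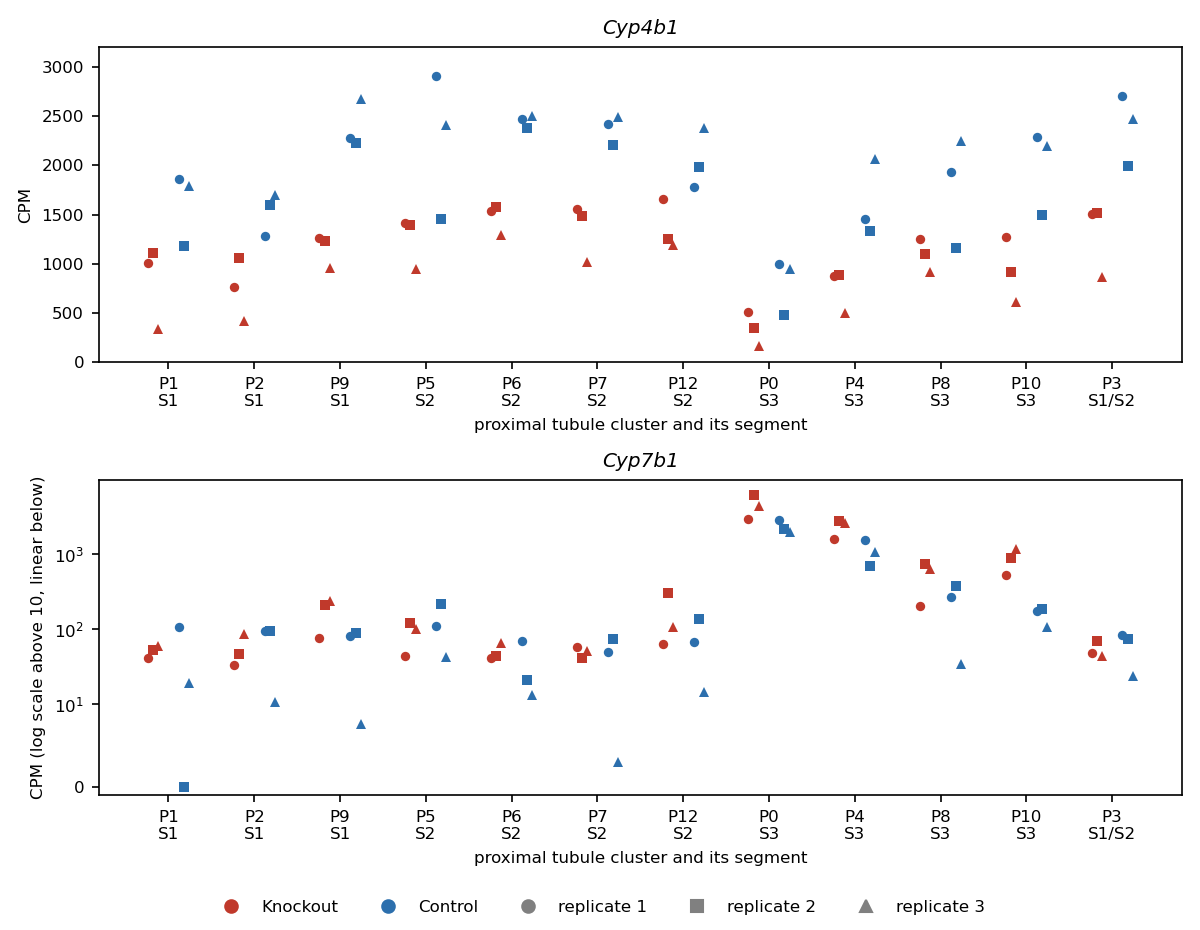
CPM of Cyp4b1 (linear axis) and Cyp7b1 (log axis above 10) in each proximal tubule cluster that every library held, with 1 point per library, knockout left of control. Cyp4b1 does not overlap between the groups in any S1 or S2 cluster, and Cyp7b1 is higher in all knockout libraries in 3 of 4 S3 clusters.

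The remaining sterol, steroid and retinoic acid enzymes had few counts in the proximal tubule. Cyp39a1, an oxysterol hydroxylase of bile acid synthesis, reached 8.55 to 22 times its proximal tubule level in the tested distal classes, the most in intercalated cell A. There it stood at 72.3, 30.9 and 69.2 CPM in the knockout libraries and at 33.6, 35.8 and 75.0 CPM in the control libraries, which overlapped. Cyp46a1, a cholesterol hydroxylase best known from neurons, reached 6.54 times its proximal level in the thick ascending limb, at 9.28 CPM in the knockout and 9.74 CPM in the control libraries. The steroid hormone enzymes were near absent from the counts: Cyp19a1, which makes estrogens, had 59 UMIs in all, Cyp21a1 36 and Cyp11a1, which takes the first step from cholesterol, 31. The retinoic acid enzymes Cyp26b1, Cyp26c1 and Cyp26a1, which break down retinoic acid, had 238, 94 and 40 UMIs. Cyp26b1 in endothelial cells stood at 2.37, 0 and 22.1 CPM in the knockout libraries and at 7.96, 59.8 and 14.9 CPM in the control libraries, which overlapped. Cyp20a1, the orphan enzyme, reached 5.25 times its proximal level in endothelial cells, at 42.7, 56.0 and 22.1 CPM in the knockout libraries and 58.4, 85.4 and 89.5 CPM in the control libraries. These groups did not overlap (-0.94 ± 0.39, unadjusted p 0.0357, edgeR adjusted p 1.0), where 2.78% of all tested genes lay below in that class.

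A pair of xenobiotic enzymes belonged to intercalated cells, the acid and base transporting cells of the collecting system. Cyp3a13, a drug-metabolizing enzyme, was counted 37 times in the whole proximal tubule and reached 76.2 times that level in intercalated cell A. It stood there at 44.8, 24.7 and 31.5 CPM in the knockout libraries, against 62.1, 62.7 and 65.6 CPM in the control libraries. The groups did not overlap (-0.88 ± 0.39, unadjusted p 0.0434, edgeR adjusted p 0.475), but the gene had enough counts for the test only through the control libraries. Cyp2s1, an epithelial enzyme of small lipid and foreign substrates, reached 20.9 times its proximal level in intercalated cell B, at 68.3, 29.7 and 95.2 CPM in the knockout libraries and 62.6, 33.4 and 59.3 CPM in the control libraries, which overlapped. Cyp2u1, a fatty acid hydroxylase, reached 6.4 times its proximal level in the thick ascending limb, at 12 CPM in the knockout and 16.7 CPM in the control libraries.

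**Figure D5:**
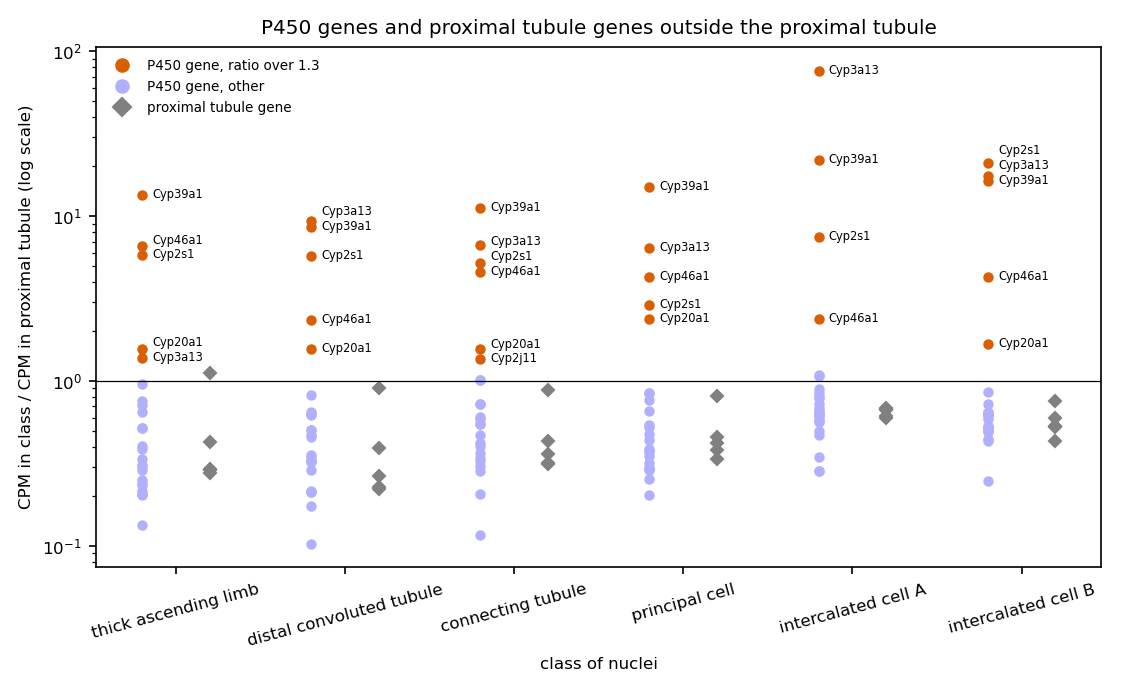
Level of named members with at least 30 proximal tubule UMIs (circles) and of Slc34a1, Slc5a12, Slc22a6, Lrp2 and Kap (diamonds) in 6 tubule classes, as a multiple of the proximal tubule level (log scale). Cyp3a13 in intercalated cell A, at 76.2, and Cyp2s1 in intercalated cell B, at 20.9, lie far above the diamonds, as does Cyp39a1 in each class.

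Counts outside the proximal tubule can hold RNA released by proximal tubule cells, so the members' ratios were set beside those of proximal tubule genes. Slc34a1, Slc5a12, Slc22a6 and Lrp2, which tubule cells beyond the proximal tubule do not use, stood there at 0.222 to 0.681 of their proximal level, and Kap at 0.615 to 1.11. Ratios were taken for the 35 members with enough UMIs in the whole proximal tubule or in any 1 class. A member rare in the proximal tubule could thus enter through its counts in another class, as did Cyp3a13 with 37 proximal tubule UMIs. Of the 35, 17, 18, 20, 18, 18 and 21 stood above the highest of those 4 genes in thick ascending limb, distal convoluted tubule, connecting tubule, principal cell, intercalated cell A and intercalated cell B. Above it in all 6 classes stood 11 members: Cyp20a1, Cyp2u1, Cyp2j6, Cyp3a13, Cyp2s1, Cyp46a1, Cyp2d22, Cyp4f17, Cyp4f13, Cyp39a1 and Cyp2c66. Cyp2j13, Cyp2j5, Cyp4a10, Cyp4a31 and Cyp2b9 stood above it in none of the 6, which cannot be told from released RNA by this measure. Kap was not counted among the 4. In the thick ascending limb, where Kap stood at 1.11, Cyp2j6 (0.517), Cyp2c66 (0.683), Cyp4f17 (0.706), Cyp4f13 (0.71) and Cyp2d22 (0.96) were below Kap. Cyp20a1, Cyp2u1, Cyp3a13, Cyp2s1, Cyp46a1 and Cyp39a1 were above Kap in each of the 6 classes. Cyp4b1 stood at 0.384 of its proximal level in the thick ascending limb, 0.326 in the distal convoluted tubule, 0.402 in the connecting tubule and 0.388 in principal cells, each between the lowest and the highest of those 4 genes in that class. In intercalated cell A it stood at 0.683, where the highest of the 4 was 0.681 (Kap 0.615), and in intercalated cell B at 0.635, where the highest was 0.595 (Kap 0.752). Its values in the knockout and control libraries did not overlap in both kinds of intercalated cell and overlapped in the other 4 classes. The log2 fold change was -1.45 ± 0.50 in the thick ascending limb, -0.96 ± 0.61 in the distal convoluted tubule, -0.79 ± 0.40 in the connecting tubule and -1.13 ± 0.50 in principal cells (edgeR adjusted p 0.885, 1, 1 and 0.904). In intercalated cell A it stood at 692.3, 785 and 378 CPM in the knockout libraries, against 1657, 1172 and 1631 CPM in the control libraries (-1.31 ± 0.30, edgeR adjusted p 0.231, DESeq2 adjusted p 0.00971). Slc34a1 there averaged 2520 CPM in the knockout and 3904 CPM in the control libraries. In intercalated cell B it stood at 694, 732 and 256 CPM in the knockout libraries and at 1510, 1154 and 1267 CPM in the control libraries (-1.26 ± 0.34, edgeR adjusted p 0.418, 0.00297 with the replicate block, DESeq2 adjusted p 0.0101), with Slc34a1 at 1778 CPM in the knockout and 3012 CPM in the control libraries. With the replicate block, Cyp4b1 also had an adjusted p of 0.00991 in the thick ascending limb and 0.0287 in the connecting tubule. In intercalated cell B the replicate block also gave an adjusted p of 0.029 for Cyp4a10, at 38.7, 39.6 and 14.7 CPM in the knockout and 82.1, 140 and 94.2 CPM in the control libraries, and of 0.0499 for Cyp2e1. Cyp4a10 had enough counts for the test there only through the control libraries, so a lower value in the knockout was built into that call. The fits with the block called 0.14% of all genes in the thick ascending limb, 0.908% in the connecting tubule and 1.36% in intercalated cell B. Whether RNA of these nuclei themselves differed was not tested.

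Over the distal classes 12, 7, 9, 5, 9 and 10 members were tested in thick ascending limb, distal convoluted tubule, connecting tubule, principal cell, intercalated cell A and intercalated cell B. Of these 12, 6, 8, 4, 7 and 8 were lower in the knockout by sign, beside 51.3%, 51.6%, 51.1%, 50.6%, 49.1% and 50.7% of all tested genes. At an unadjusted p under 0.05, 3, 1, 1, 2, 5 and 5 members were lower in the knockout, beside 3.4%, 2.53%, 2.3%, 2.77%, 6% and 4.72% of all tested genes. Cyp7b1 in intercalated cell B was higher (1.96% of all tested genes). Cyp3a13 in intercalated cell A and Cyp2j7 and Cyp4a10 in intercalated cell B had enough counts for the test only through the control libraries. Without them, 4 of 8 members in intercalated cell A and 3 of 8 in intercalated cell B were lower at an unadjusted p under 0.05. At an edgeR adjusted p of 0.05 the members called were 0 in each class, where 0.0504% of all genes were called in intercalated cell A and 0% in the others. Without the low-count filter 7 members were called in the thick ascending limb (0.666% of all genes), 1 in the connecting tubule (0.252%), 7 in intercalated cell A (0.478%) and 4 in intercalated cell B (0.26%). DESeq2 called Cyp4b1 in both kinds of intercalated cell, where it called 0.573% (A) and 1.89% (B) of all genes.

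Among the members with high counts, Cyp2j11 stood above those 4 genes in the distal convoluted tubule, at 0.471, and in the connecting tubule, and Cyp7b1 in principal cells. Kap was higher than Cyp2j11 in the distal convoluted tubule, at 0.903, and than Cyp7b1 in principal cells, at 0.809. In the connecting tubule Cyp2j7 and Cyp2j6 were each at 1.02 of their proximal level, Cyp2j8 at 0.722 and Cyp2e1 at 0.546. The highest of the 4 genes was 0.43 there, and Kap stood at 0.885. Cyp2j11 reached 1.35 times its proximal level in the connecting tubule, at 307, 239 and 320 CPM in the knockout libraries, against 512, 420 and 570 CPM in the control libraries. The groups did not overlap there (-0.80 ± 0.21, edgeR adjusted p 1.0, 0.0273 with the replicate block), and Slc34a1 averaged 1340 CPM in the knockout and 1428 CPM in the control libraries. In the thick ascending limb it stood at 43.2, 31.3 and 24.1 CPM in the knockout libraries and at 92.5, 138 and 74.4 CPM in the control libraries (-1.60 ± 0.34, edgeR adjusted p 0.581), at 0.216 of its proximal level, below the 4 genes there. Cyp7b1 in principal cells, at 0.765 of its proximal level, stood at 387, 484 and 463 CPM in the knockout libraries and at 646, 586 and 543 CPM in the control libraries. There the knockout libraries were the lower ones without overlap (-0.48 ± 0.23, unadjusted p 0.0585, edgeR adjusted p 0.904), opposite in sign to S3, and the difference between these classes was not tested. In intercalated cell B, Cyp7b1 stood at 118, 327 and 535 CPM in the knockout libraries and at 135, 133 and 55.8 CPM in the control libraries (1.44 ± 0.49, edgeR adjusted p 0.526). Without the libraries numbered 1 the log2 fold change there was 2.31, with an edgeR adjusted p of 0.0213 (0.0933% of all genes called in that fit).

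In the glomerulus, where Klf4 was targeted, 5 members were tested in podocytes, with 0 past the adjusted threshold (0.213% of all genes), and 5 in parietal epithelial cells, the cells lining Bowman's capsule. Cyp4b1 in parietal epithelial cells was the 1 member that passed the test in any class, and that call did not hold when most single libraries were left out. It stood at 499, 290 and 148 CPM in the knockout libraries, against 1560, 925 and 797 CPM in the control libraries. It fell in the knockout by a log2 fold change of -1.82 ± 0.46 (edgeR adjusted p 0.044), in a class where 6.69% of all genes passed. The call was kept by DESeq2 (adjusted p 0.0195, with 5.36% of all genes called) and without Knockout replicate 1 (edgeR adjusted p 0.00301, with 15.2% of all genes called). It was lost without Knockout replicate 2 (edgeR adjusted p 0.206), without Knockout replicate 3 (0.0977), and without Control replicate 1 (0.262), 2 (0.124) or 3 (0.0541), while the log2 fold change stayed between -2.38 and -1.27. It was also lost without both libraries numbered 1 (edgeR adjusted p 0.0702). With the replicate block 4 of the 5 members passed (12.7% of all genes), among them Cyp4b1 with an edgeR adjusted p of 0.00104. The knockout libraries held 121, 78 and 59 of these nuclei and the control libraries 29, 14 and 15, and Slc34a1 averaged 1004 CPM in the knockout and 3140 CPM in the control libraries, Lrp2 618 and 1230 CPM. Cyp4b1 stood at 0.339 of its proximal level in parietal epithelial cells, where Slc34a1, Slc5a12, Slc22a6 and Lrp2 stood at 0.305 to 0.453. For podocytes these values were 0.397 and 0.33 to 0.469. The part of proximal tubule RNA in that difference was not tested. In podocytes Cyp4b1 stood at 528, 179 and 160 CPM in the knockout libraries and at 1011, 642 and 673 CPM in the control libraries (-1.27 ± 0.47, edgeR adjusted p 0.401). Without Knockout replicate 1 the log2 fold change there was -2.24 (edgeR adjusted p 0.00143), and 4 of the 5 members passed in podocytes, beside 14.2% of all genes. Cyp27a1 reached 1.8 times its proximal level in podocytes, at 85.5, 16.3 and 59.8 CPM in the knockout libraries and 111, 120 and 104 CPM in the control libraries, which did not overlap, but it had too few counts for the test.

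Genes that work with the P450 enzymes were read from lists of their partners, and in the tubule classes none of them passed the test. Of 17 redox and heme synthesis genes, 15, 16 and 14 were tested in S1, S2 and S3. By sign 10, 12 and 9 were lower in the knockout, beside 52.3%, 50.7% and 50.7% of all tested genes. Por, the oxidoreductase that feeds electrons to the microsomal enzymes, stood at 202, 232 and 254 CPM in S1 of the knockout libraries, against 303, 365 and 326 CPM in the control libraries. These groups did not overlap (-0.58 ± 0.16, edgeR adjusted p 0.528). Pgrmc1, a heme-binding partner of several P450 enzymes, stood at 7.79, 2.62 and 4.88 CPM in S3 of the knockout libraries and at 26.3, 7.45 and 13.9 CPM in the control libraries (edgeR adjusted p 0.568). Of 19 nuclear receptors and regulators, 17 were tested in each segment, with medians near 0. Vdr, the vitamin D receptor, stood at 365, 307 and 280 CPM in S1 of the knockout libraries and at 350, 536 and 456 CPM in the control libraries, which overlapped (edgeR adjusted p 0.649). Nr1h4, the bile acid receptor, stood at 733, 1449 and 1477 CPM in S2 of the knockout libraries and at 709, 724 and 752 CPM in the control libraries (0.75 ± 0.29, edgeR adjusted p 0.642). Knockout 1 overlapped the control libraries for Nr1h4, as it did for Cyp7b1 in S3.

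Of 9 genes of vitamin D handling all were tested in each proximal segment. By sign 5, 5 and 6 were lower in the knockout, beside 52.3%, 50.7% and 50.7% of all tested genes. Dab2, an adaptor for uptake by megalin, stood at 4069, 6055 and 6140 CPM in S2 of the knockout libraries, against 2725, 2302 and 3387 CPM in the control libraries, without overlap (0.95 ± 0.27, edgeR adjusted p 0.494). Of 22 conjugation enzymes 14, 15 and 13 were tested. Gstt2, a glutathione transferase, stood at 271, 84.0 and 74.8 CPM in S2 of the knockout libraries and at 419, 370 and 248 CPM in the control libraries (-1.25 ± 0.46, edgeR adjusted p 0.642). Of 11 further enzymes of arachidonic acid 1, 1 and 2 were tested, among them Ephx2, which hydrolyses the epoxides made by the Cyp2j enzymes. It stood at 126, 188 and 190 CPM in S1 of the knockout libraries and at 197, 251 and 170 CPM in the control libraries, which overlapped, and so did Hpgd, which inactivates prostaglandins, in S3 (edgeR adjusted p 0.801).

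Because several members with lower values are known to depend on sex hormones, lists of sex-linked and sex-dependent genes were read beside them. Of the sex-linked genes 4 were tested in each segment and none had an unadjusted p under 0.05. Of 7 genes that differ between the sexes in mouse kidney, 5, 4 and 4 were tested, again with 0 under an unadjusted p of 0.05. Kap stood at 2663, 898 and 1204 CPM in S2 of the knockout libraries and at 8873, 1555 and 1466 CPM in the control libraries (-1.36 ± 0.73, edgeR adjusted p 0.719), with Control 1 far above the rest. Gusb, which also responds to androgen, stood the other way, at 18.3, 13.7 and 15 CPM in S1 of the knockout libraries and at 11.1, 7.42 and 8.63 CPM in the control libraries (0.69 ± 0.32, edgeR adjusted p 0.737). Slc7a12, a female-biased transporter, stood at 2.84, 3.53 and 5.47 CPM over all barcodes in the knockout libraries and at 1.39, 0.605 and 0.726 CPM in the control libraries. The part of sex hormones in the P450 values was not tested.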

How the data were processed

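Nuclear RNA of kidney cortex was counted with the 10x platform in 6 libraries. The deposited values are raw UMI counts per gene and barcode, and the file headers name Cell Ranger 3.1.0 as the software behind them, while mm10 is the build named in the submitters' processing notes, which also name Seurat without a role. The members, gene lists and tests were chosen with earlier results of these data known.

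Barcodes with under 300 genes or over 5% mitochondrial UMIs were left out. Scrublet (scanpy 1.11.5) flagged 0 to 6 doublets per library at its own threshold, which did not work, so the barcodes with the highest scores were removed at 0.8% per 1000 barcodes (104 to 3831 per library). Leiden clustering (igraph 0.11.9) on 3000 variable genes without the P450 genes gave 65 clusters, named by at least 3 markers. Mixed and unnamed clusters were left out, and names are rebuilt, not the authors'. UMIs were summed per library and class (at least 10 nuclei in each library) and tested with edgeR 4.0.16 in R 4.3.3 (quasi-likelihood, TMM, filterByExpr, Benjamini-Hochberg over all genes of a class). DESeq2 1.42.0 was an alternative, as were other filters and left-out libraries. The edgeR test was checked on simulated data. Thin limb and injured tubule were not tested.

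Replicate numbers come from the titles. Deviations from the group means correlated between same-numbered libraries by 0.569, 0.221 and 0.253 in S1, 0.557, 0.175 and 0.235 in S2 and 0.569, 0.25 and 0.209 in S3. They passed 0.1 in all tubule classes except principal cell and intercalated cell A (0.084 and 0.052 for number 2). No correlation was taken between differently numbered libraries, and Knockout 1 and Control 1 both stood apart. The correlations therefore cannot by themselves show a pairing by number. The replicate block is an alternative that assumes that pairing.

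Named were members past the threshold, up to 4 per role with the highest level, up to 6 per class with the smallest p, Cyp24a1, Cyp27b1, Cyp2e1 and Cyp4b1, and 2 per partner list. Other genes were named after their values were seen. Promoters are RefSeq windows of GRCm38.p6, and gene positions are from GENCODE M21. The GENCODE starts of Cyp2a4, Cyp2a5 and Cyp2e1 lie inside their printed windows, whose last bases are thus within the gene by that annotation.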

Additional observations from a re-analysis of the deposited data

Results flagged for a closer look

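The knockout effect on Cyp2d9 differed between proximal tubule segments. Its log2 fold change in S3 minus that in S2 was 2.75, in 1 edgeR fit over the 3 segments with library as a block (adjusted p 0.00182). All knockout libraries were below all control libraries in S2, and in S3 the groups overlapped by 1 library. The knockout libraries held 21 UMIs of the gene in S2, so the fold change there rests on very low counts. Cyp2d9 in S2 had enough counts for the test only through the control libraries, so a lower value in the knockout was built into its test in S2 alone. The fit was chosen after the data were seen.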

How the results depend on the processing

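No member passed the adjusted threshold in a tubule class in the edgeR test, and leaving out any 1 library left that count at 0 to 0 in every tubule class. Without the low-count filter 3 members passed in S1, 4 in S2, 7 in the thick ascending limb, 1 in the connecting tubule, 7 in intercalated cell A and 4 in intercalated cell B. DESeq2 called 2 in S1, 3 in S2, 3 in S3, 1 in intercalated cell A and 1 in intercalated cell B. With the replicate block, the pairing by number, 1 passed in S1, 3 in S2, 2 in S3, 1 in the thick ascending limb, 2 in the connecting tubule and 3 in intercalated cell B, and no other call of a tubule class changed. Cyp2d9 in S2 (called by DESeq2 and with the block) had enough counts for the test only through the control libraries. That also held for Cyp4a10 in intercalated cell B (called with the block). Without both libraries numbered 1, 1 passed in S3 and 1 in intercalated cell B, both Cyp7b1. In podocytes 0 members passed, against 1 without the low-count filter (0.53% of all genes), 2 without both libraries numbered 1 (13.4%), and 0 to 4 when 1 library was left out. In parietal epithelial cells 1 passed (Cyp4b1), against 4 without the low-count filter (1.57%), 4 with the replicate block, 0 without both libraries numbered 1, 0 with mixed clusters put in their highest-scoring class, and 0 to 4 when 1 library was left out. Members with lower values in the knockout at an unadjusted p under 0.05 numbered 7 to 10 in S1, 8 to 12 in S2 and 5 to 8 in S3 when 1 library was left out. With the proximal tubule as 1 class there were 12, against 7 in S3 alone. The causes were not tested. Of the values for named members under the alternatives, 1592 stayed on their side of the threshold, 44 passed it in addition and 7 no longer passed it (all Cyp4b1 in parietal epithelial cells). Those 1592 include changes of sign. Cyp7b1 in S2, for example, kept its sign in 11 of 17 settings, and Cyp2j13 in S1 in 14 of 17. Among values with an unadjusted p under 0.05 in the main edgeR fit, 0 changed sign. Cyp4b1, Cyp2j7, Cyp2a4 and Cyp2d9 kept their sign in S2 and S3 in 17 of 17 settings, as did Cyp7b1 in S3. Libraries numbered 2 and 3 held far fewer UMIs than those numbered 1, which limits members with low counts, and 3 libraries a group limit every test.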
